A study of Mus musculus with 6 samples.

Results

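The 5 genes described here are Krt5, Krt14, Krt15 and Krt17, known as keratins of basal epithelial layers, and Trp63, which encodes the transcription factor p63. They were picked by symbol, and all 5 were present among the 34590 gene symbols of the count table. The table held 6 RNA-seq libraries from 3 pairs of contralateral inguinal mammary glands (the fourth pair). In each of 3 host mice the left gland carried WT.EGFP+ epithelium and the right gland carried Adamts18-/-.EGFP+ epithelium, so there were 3 WT and 3 Adamts18-/- libraries. Adamts18 encodes a secreted metalloprotease, and its mutant allele lacks the exons of the zinc-binding catalytic site. EGFP was driven in the donors by the chicken beta-actin promoter. The hosts were WT females, 3 weeks old at surgery, whose own epithelium had been cleared from the fat pads before grafting, so the stroma of both glands was WT. The donors differed between the 3 experiments, and the age of the hosts at collection is not given in the sources used here. Host, donor and experiment therefore go together with the mouse number, and genotype and body side cannot be told apart.

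The mammary duct is a bilayer with an inner luminal and an outer basal layer. Basal cells, most of them myoepithelial, sit on the basement membrane, contract in response to oxytocin and include cells that can rebuild a gland when grafted. Keratins build filaments from 1 type I and 1 type II chain: Krt5 is the type II chain of basal cells and Krt14 its usual type I partner, while Krt8 and Krt18 form the corresponding pair of luminal cells. Krt15 and Krt17 are further type I chains, known from the basal layer of the epidermis and the hair follicle and from wounded skin. p63 is required for the formation of stratified epithelia and of the mammary bud, and in several epithelia it binds and activates the genes of Krt5 and Krt14.

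The libraries held between 53875123 and 71595924 counts, so that 3 counts corresponded to 0.0419 to 0.0557 counts per 1000000 scaled counts (CPM), and all 5 genes lay far above that level. The counts of Adamts18 itself were 252, 608 and 383 in WT and 144, 295 and 202 in the Adamts18-/- glands of mice 1, 2 and 3. The scaled level was lower on the Adamts18-/- side in all 3 mice. A gene-level count still includes the exons that the allele keeps, and it includes transcripts of the WT host stroma, where the paper reports Adamts18 expression. The source of the counts on the Adamts18-/- side was not tested. The labels describe the RNA as coming from sorted GFP+ epithelial cells. Markers of other cell types were nevertheless abundant: 5 fibroblast genes summed to between 7652 and 10316 CPM and 4 adipocyte genes to between 3028 and 7707 CPM, whereas the 4 basal keratins summed to between 132 and 365 CPM. Skeletal muscle genes summed to 9660 and 9446 CPM in the Adamts18-/- glands of mice 1 and 2 and to between 235 and 2457 CPM in the other 4. B cell genes summed to 519 CPM in the Adamts18-/- gland of mouse 3 and to at most 114 CPM elsewhere. The part of these other cells in the results that follow was not tested.

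The sequences of the members bear on how well their reads can be assigned, because keratin genes resemble each other. In the GENCODE M21 annotation of GRCm38, Krt14 (chr11:100203162-100207548), Krt15 (chr11:100131758-100135928) and Krt17 (chr11:100256217-100261029) lie within one type I keratin cluster on the minus strand, with Krt19, Krt9 and Krt16 among their nearest neighbours. Krt5 (chr15:101707070-101712898, minus strand) lies beside Krt6a and Krt6b in the type II cluster. Trp63 (chr16:25683763-25892102, plus strand) stands apart from both. The counts themselves were made on mm9, so these positions describe the annotation and not the deposited alignments. A pair of stretches that Krt14 shares with another gene follow, both of them coding sequence read in the direction of the transcript. The first is identical in Krt14 and Krt16 (exon 1 of Krt14, chr11:100207017-100207150), and the second in Krt14 and Krt17 (exon 6 of Krt14, chr11:100204114-100204184).
Krt14 and Krt16: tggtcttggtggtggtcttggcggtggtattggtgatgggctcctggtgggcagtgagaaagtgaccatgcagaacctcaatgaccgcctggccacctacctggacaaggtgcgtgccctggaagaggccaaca
Krt14 and Krt17: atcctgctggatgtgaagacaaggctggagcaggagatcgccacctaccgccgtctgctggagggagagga
The stretches are 134 and 71 bases long. Reads were 85 bases long, so a read could fit wholly inside the first stretch but not inside the second. Of the 85-base windows of the Krt14 transcript, 76 of 1614 (4.71%) occurred exactly in Krt16. Of those of the Krt5 transcript, 88 of 2113 (4.16%) occurred in Krt6a, Krt6b or the predicted gene Gm5478. No window of the Krt15, Krt17 or Trp63 transcript used here occurred in another gene. Krt16 had 7 counts and Krt6b 1 count over the 6 libraries. How reads with several matches were counted is not given in the sources used here. Trp63 has 8 annotated transcripts, and a gene-level count does not separate the long from the short amino-terminal isoforms of p63.

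The RefSeq promoter table for GRCm38.p6 held windows for Krt5 and Krt14. The window for Krt14 starts inside the gene, at a non-coding transcript, and is not shown. For Krt5, shown because no member was closer in profile to another than Krt5 and Krt14 were, the 250 bases before the start (chr15:101712906-101713155, minus strand) read as follows.
Krt5 promoter: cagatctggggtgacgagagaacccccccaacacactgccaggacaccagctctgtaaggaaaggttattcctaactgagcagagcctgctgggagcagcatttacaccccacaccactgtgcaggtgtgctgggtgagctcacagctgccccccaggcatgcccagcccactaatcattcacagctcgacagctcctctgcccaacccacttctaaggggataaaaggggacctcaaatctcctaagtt
This window was searched on both strands, together with the 50 bases after the start, for TATAAA, for GGGCGG, for TGANTCA, for GCCNNNGGC and for a reduced form of a p63 response element. The element holds a pair of cores that begin with C and end with G. The form searched fixed all letters of the first core and only the outer letters of the second. Looser forms of the element were not searched. None of the strings of letters searched for occurred in the window. They occurred in 13.6%, 35.7%, 7.81%, 16.6% and 11.5% of 32851 RefSeq windows of the same length.

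Per kilobase of exon, Krt5 and Krt14 were the most abundant members, followed by Krt17, Krt15 and Trp63. The mean levels over the 6 glands were 40.7, 38.2, 28.2, 8.44 and 3.95 CPM per kilobase of exon (RPKM). Krt5 exceeded Krt14 in 5 of 6 glands, but their log2 ratio ranged only from -0.10 to 0.22, so the order of these neighbours was within the spread between glands. Krt14 exceeded Krt17 in 6 of 6 glands, and Krt17 exceeded Krt15 in 6 of 6 glands by 1.07 to 2.69 on the log2 scale. Krt15 exceeded Trp63 in all glands other than the Adamts18-/- gland of mouse 1. The length used for Trp63 was 8391 bases, the exons of its 8 transcripts together. Its transcript used above has 4703 bases, and the order of Krt15 and Trp63 depends on which length is taken. The luminal keratins were more abundant on the same scale, with WT means of 169 RPKM for Krt8 and 247 RPKM for Krt18. Together the 5 members took 0.0161 to 0.0421% of all counts of a gland.

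Krt5 counted 64.5, 158 and 101 CPM on the WT side of mice 1, 2 and 3, and 71.0, 88.1 and 54.4 CPM in the contralateral Adamts18-/- glands. The Adamts18-/- side was lower in mice 2 and 3 and slightly higher in mouse 1, and the groups overlapped. The means were 108 ± 47.2 CPM in WT and 71.2 ± 16.8 CPM in Adamts18-/- glands (SD, n = 3). The within-mouse log2 differences (Adamts18-/- minus WT) were 0.14, -0.84 and -0.89, and the fitted difference was -0.54 (SE 0.23, unadjusted p = 0.0711, edgeR quasi-likelihood test with the mouse as block).

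Krt14, the partner of Krt5, counted 55.3, 109 and 77.5 CPM in WT and 56.0, 67.2 and 38.6 CPM in Adamts18-/- glands. Its pattern was that of Krt5: level in mouse 1 and lower in mice 2 and 3, with overlapping groups. The fitted log2 difference was -0.56 (SE 0.21, unadjusted p = 0.0471, same test). The group means were 80.5 ± 26.7 and 54.0 ± 14.4 CPM (SD, n = 3).

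Krt17 counted 39.4, 69.3 and 47.6 CPM in WT and 27.4, 53.3 and 25.2 CPM in Adamts18-/- glands. It was lower on the Adamts18-/- side in all 3 mice, by 0.52, 0.38 and 0.92 on the log2 scale, although the groups overlapped because mouse 2 was high on both sides. The fitted log2 difference of -0.61 (SE 0.13, unadjusted p = 0.00570, same test) was the largest and the most precise relative to its size of the 5, and by p Krt17 ranked 77 among all genes tested. The means were 52.1 ± 15.4 and 35.3 ± 15.6 CPM (SD, n = 3).

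Trp63 counted 30.5, 50.8 and 31.1 CPM in WT and 28.0, 36.0 and 22.2 CPM in Adamts18-/- glands. It was also lower in all 3 mice, least in mouse 1, and its groups overlapped. The fitted log2 difference was -0.37 (SE 0.11, unadjusted p = 0.0193, same test), a level lower by 22.5%. The group means were 37.5 ± 11.5 and 28.8 ± 6.95 CPM (SD, n = 3).

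Krt15, the least abundant of the keratins, had another pattern. It counted 7.24, 29.3 and 10.4 CPM in WT and 4.84, 24.1 and 13.6 CPM in Adamts18-/- glands, with means of 15.6 ± 11.9 and 14.2 ± 9.64 CPM (SD, n = 3). The Adamts18-/- side was lower in mice 1 and 2 and higher in mouse 3. The fitted log2 difference was -0.16 (SE 0.21, unadjusted p = 0.492, same test).

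**Figure D1:**
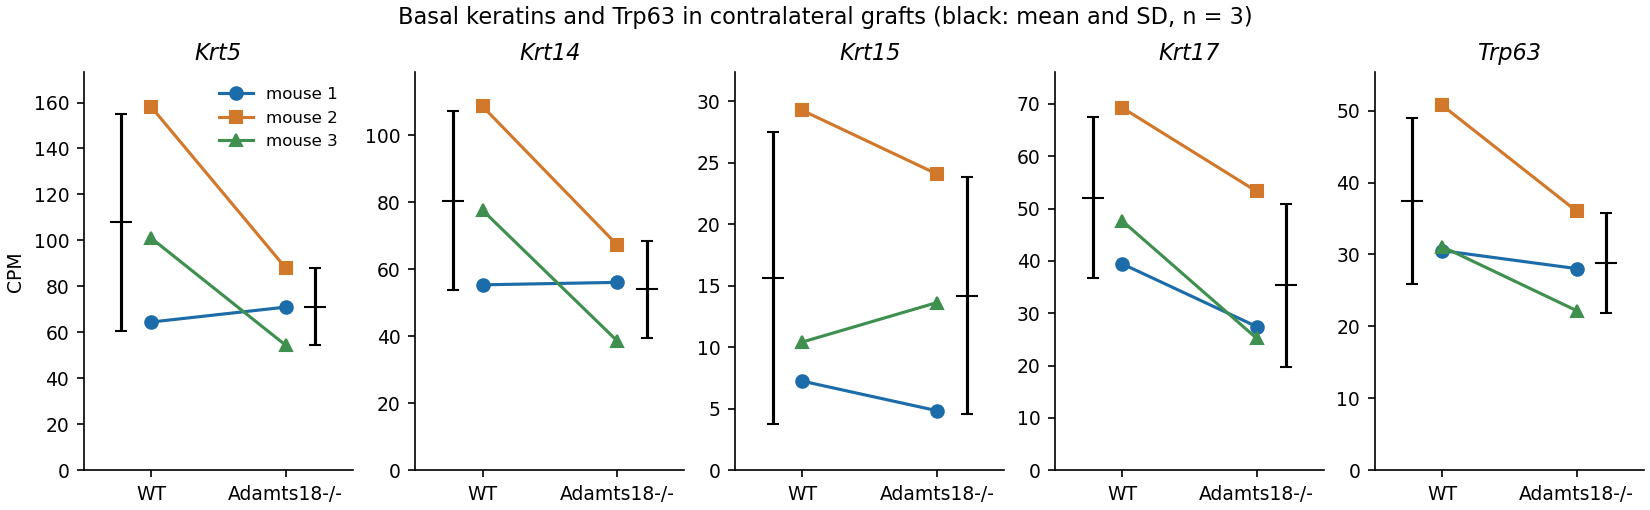
Levels (CPM, TMM-scaled, vertical axis from 0) of each member in the WT and the Adamts18-/- gland of each mouse; lines join the glands of one mouse, and black bars give the mean and SD of 3 glands. Mouse 2 is the highest for every member on the WT side, Krt17 and Trp63 slope down in all 3 mice, and Krt15 slopes up in mouse 3.

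No member passed the Benjamini-Hochberg adjustment over the 17345 genes tested: the adjusted p was 0.987 for all 5. No gene of the table passed it in this test (0.0% of those tested), while 670 genes (3.86%) had an unadjusted p under 0.05. By the thresholds used in the study (unadjusted p under 0.05 with a fold under 0.8 or over its inverse), 3 of the 5 members were lower in Adamts18-/- glands, namely Krt14, Krt17 and Trp63, and none was higher; 1.84% of all genes tested were lower and 1.17% higher by the same thresholds. Lower values in all 3 mice were found for 2 of the 5 members and for 12.7% of all genes tested. Every Adamts18-/- gland lay below every WT gland for 0 of the 5 members and for 2.63% of all genes tested. The median fitted log2 difference was -0.54 over the 5 members and 0.00065 over all genes tested. In such bulk RNA, fewer basal cells and less of these transcripts per basal cell cannot be told apart.

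The count of 3 depended on the mice and on the pairing. Without the mouse as a block, 0 of the 5 members passed the thresholds, with unadjusted p from 0.109 to 0.855. Without mouse 1, the fitted log2 differences of Krt5 and Krt14 were -0.87 and -0.85 and 4 members passed. Without mouse 2, only Krt17 passed (-0.72). Without mouse 3, whose Adamts18-/- gland held the B cell markers, Krt15 and Krt17 passed (-0.41 and -0.44), and Krt5, Krt14 and Trp63 did not (-0.35, -0.33 and -0.30). Krt17 was thus past the thresholds in each of the 3 sets of 2 mice. Over all genes tested, 125 of 17345 were lower by the thresholds without the block, against 319 with it. Without mouse 1, 2 or 3 the genes lower were 481 of 17596, 214 of 17507 and 286 of 17383.

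**Figure D2:**
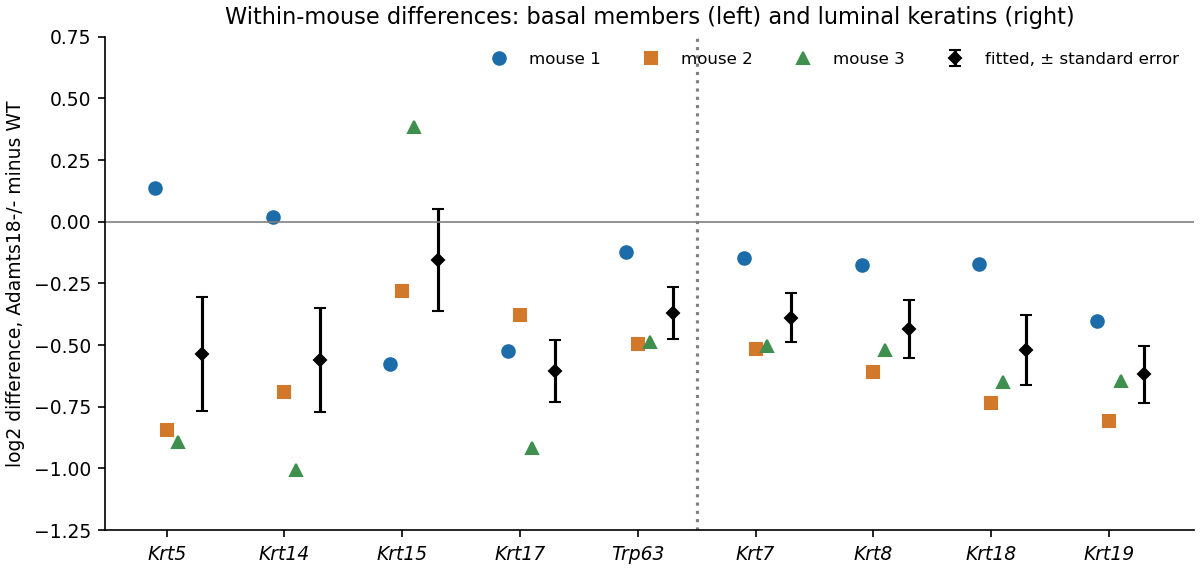
Differences in log2 CPM between the glands of each mouse (Adamts18-/- minus WT, vertical axis) for the 5 members and, right of the dotted line, the 4 luminal keratins; black diamonds give the edgeR fitted log2 difference with its standard error. Krt5 and Krt14 lie at or just above 0 in mouse 1 and below -0.6 in mice 2 and 3, whereas the luminal keratins lie below 0 in all 3 mice.

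The members also varied between mice. The means of the glands of mice 1, 2 and 3 were 67.7, 123 and 77.7 CPM for Krt5 and 6.04, 26.7 and 12.0 CPM for Krt15. Mouse 2 had the highest mean for all 5 members. The edgeR test of the mouse terms gave unadjusted p of 0.0753 for Krt5, 0.0961 for Krt14, 0.00151 for Krt15, 0.00431 for Krt17 and 0.00712 for Trp63. After adjustment over all genes the values were 0.224, 0.253, 0.0592, 0.0740 and 0.0854, so none passed, against 0.628% of all genes tested that did.

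Whether the basal share of the epithelial transcripts differed was asked with ratios inside each library, which do not depend on scaling. Counts per kilobase of Krt5 plus Krt14 stood to those of Krt8 plus Krt18 as 0.169, 0.334 and 0.184 to 1 on the WT side of mice 1, 2 and 3. In the Adamts18-/- glands the ratio was 0.202, 0.314 and 0.144. It was higher on the Adamts18-/- side in mouse 1 and lower in mice 2 and 3. The mean log2 difference was -0.065 ± 0.30 (SD, n = 3 mice; exact paired permutation test, two-sided, p = 0.75, where the smallest possible p is 0.25). With the 24 pan-epithelial genes as denominator it was lower in all 3 mice, with log2 differences of -0.038, -0.0098 and -0.56 and a mean of -0.20 ± 0.31 (SD, n = 3 mice; exact paired permutation p = 0.25).

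The balance of the partners Krt5 and Krt14 was close to 1 in every gland: 0.933, 1.17 and 1.04 in WT and 1.01, 1.05 and 1.13 in Adamts18-/- glands. The mean log2 difference was 0.027 ± 0.16 (SD, n = 3 mice; exact paired permutation test, two-sided, p = 1). Neither ratio differed by more than the spread between mice, which is wide with 3 pairs. Each member was also set against Krt8 and Krt18 and against 24 pan-epithelial genes, 10 comparisons in all. Trp63 against Krt8 and Krt18 was higher on the Adamts18-/- side in 3 of 3 mice, by 0.048, 0.18 and 0.11 on the log2 scale (exact paired permutation p = 0.25, the smallest possible). Against the pan-epithelial genes its differences were -0.24, 0.27 and -0.097 (exact paired permutation p = 1). The other 4 members went in both directions among the mice in either comparison, with exact paired permutation p from 0.5 to 1.

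**Figure D3:**
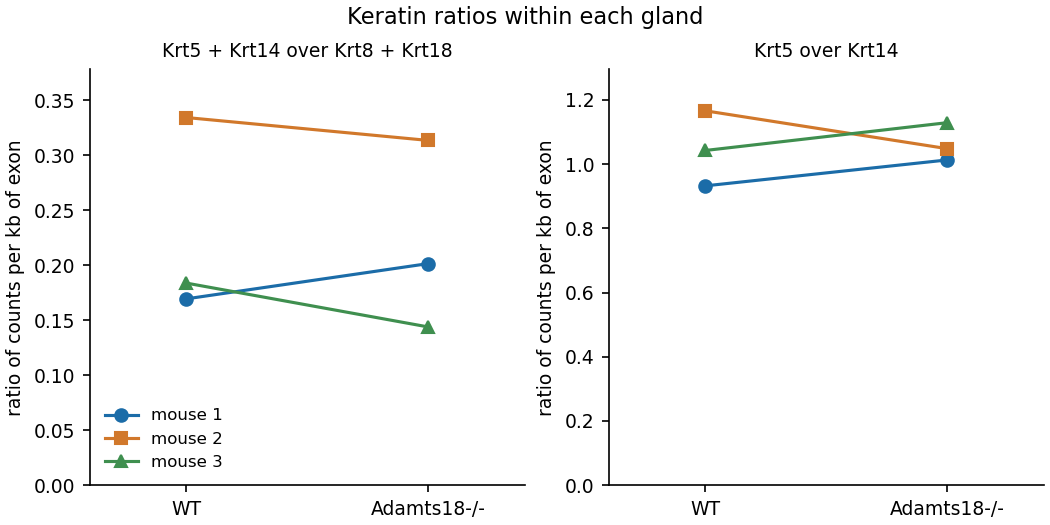
Ratios of counts per kilobase of exon within each gland (vertical axes from 0), Krt5 plus Krt14 over Krt8 plus Krt18 on the left and Krt5 over Krt14 on the right; lines join the WT and the Adamts18-/- gland of one mouse. The basal to luminal ratio of mouse 2 stands above both other mice on either side, and the Krt5 to Krt14 ratio stays between 0.933 and 1.17.

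The luminal keratins were lower too. All 4 passed the study's thresholds: Krt7 (fitted log2 difference -0.39, SE 0.10), Krt8 (-0.43, SE 0.12), Krt18 (-0.52, SE 0.14) and Krt19 (-0.62, SE 0.11). Their median was -0.48, beside 0.00065 over all genes tested, and all 4 were lower in all 3 mice; 1 of the 4 passed without mouse 2. With the pan-epithelial scaling described next, their median was -0.13 and none passed. Of 24 pan-epithelial genes, which include Epcam and Cdh1, 24 had a fitted value below 0 with a median of -0.34, but 4 were lower in all 3 mice and 3 passed the thresholds (Spint1, St14 and Ocln). The number that passed was 18 without mouse 1 and 0 without mouse 2. When the libraries were scaled to these 24 genes instead of to all genes, the median over all genes tested rose to 0.35. Relative to them the fitted log2 differences of the members were -0.19 for Krt5, -0.21 for Krt14, 0.20 for Krt15, -0.26 for Krt17 and -0.023 for Trp63, and 0 of 5 passed. Of the 17345 genes tested, 31 were lower and 913 higher by the thresholds with this scaling. The standard errors of the members were 0.36 to 0.38 with it, against 0.11 to 0.23 with scaling to all genes. The summed pan-epithelial level was 850 to 1259 CPM in WT and 691 to 961 CPM in Adamts18-/- glands, and its part in the members' differences was not tested. Within mice 1, 2 and 3 the median log2 difference of these 24 genes was 0.14, -0.75 and -0.39, beside 0.14, -0.84 and -0.89 for Krt5 and 0.019, -0.69 and -1.01 for Krt14: above 0 in mouse 1 and below 0 in mice 2 and 3 for all of them.

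Contractile genes of myoepithelial cells were also lower. Of 10 such genes, 7 were lower by the thresholds and none higher, with a median fitted log2 difference of -0.39, which was -0.05 with pan-epithelial scaling, where 0 were lower and 1 was higher. The 7 were Acta2, the smooth muscle actin (-0.45, SE 0.10), Myh11, a smooth muscle myosin (-0.45, SE 0.08), Oxtr, the oxytocin receptor (-0.57, SE 0.09), Cnn1 (-0.63, SE 0.09), Mylk (-0.34), Tagln (-0.34) and Smtn (-0.47). All 7 were lower in all 3 mice. Tpm2 had a fitted value of 0.97 without passing; its level was 504 and 586 CPM in the Adamts18-/- glands of mice 1 and 2, those with the most skeletal muscle transcripts, and 118 to 222 CPM in the others. Smooth muscle of vessels expresses most of these genes as well, so they do not mark basal cells alone.

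Among 25 genes known from other epithelia as p63 targets, a list drawn from general knowledge and with no measure of binding in these glands, 11 were lower by the thresholds and none was higher (median -0.32, which turned to 0.02, with 0 lower and 1 higher, under pan-epithelial scaling). They included Lama3 (-0.48, SE 0.07) and Lamb3 (-0.38, SE 0.08), which encode chains of laminins that anchor basal cells to the basement membrane. Itga3, an integrin chain that binds laminin, was lower by 0.42 (SE 0.07) on the log2 scale, and Col17a1, a hemidesmosomal collagen, had a fitted difference of -0.59 (SE 0.11). Others among the 11 were Cdh3, encoding P-cadherin (-0.61), Fgfr2 (-0.64), the Notch ligand gene Jag2 (-0.38), Dsp (-0.43) and Evpl (-0.60). Itga6, Egfr and Dst, the most abundant of the list apart from Fgfr2, had fitted values of -0.15, -0.05 and -0.30 and did not pass. Dsc3, chosen after its values were seen, stood at 14.8 CPM in the Adamts18-/- gland of mouse 3 and at 0.301 to 1.52 CPM in the other 5.

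Of 13 genes measured that tie keratin filaments to desmosomes and hemidesmosomes, 3 were lower by the thresholds (Dsp, Evpl and Col17a1) and none was higher. These 3, and Dst, Itgb4 and Itga6, are also in the list of p63 targets. The median was -0.28 and turned to 0.07 under pan-epithelial scaling. Jup and Pkp3 belong both to this list and to the pan-epithelial genes used for that scaling. Plec, encoding plectin, had a fitted value of 0.05 and Cd151 one of -0.18, and neither passed. The relatives of p63 did not pass either: Trp53 had a fitted log2 difference of 0.06 and the sparse Trp73 one of 0.33, each in both directions among the mice.

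**Figure D4:**
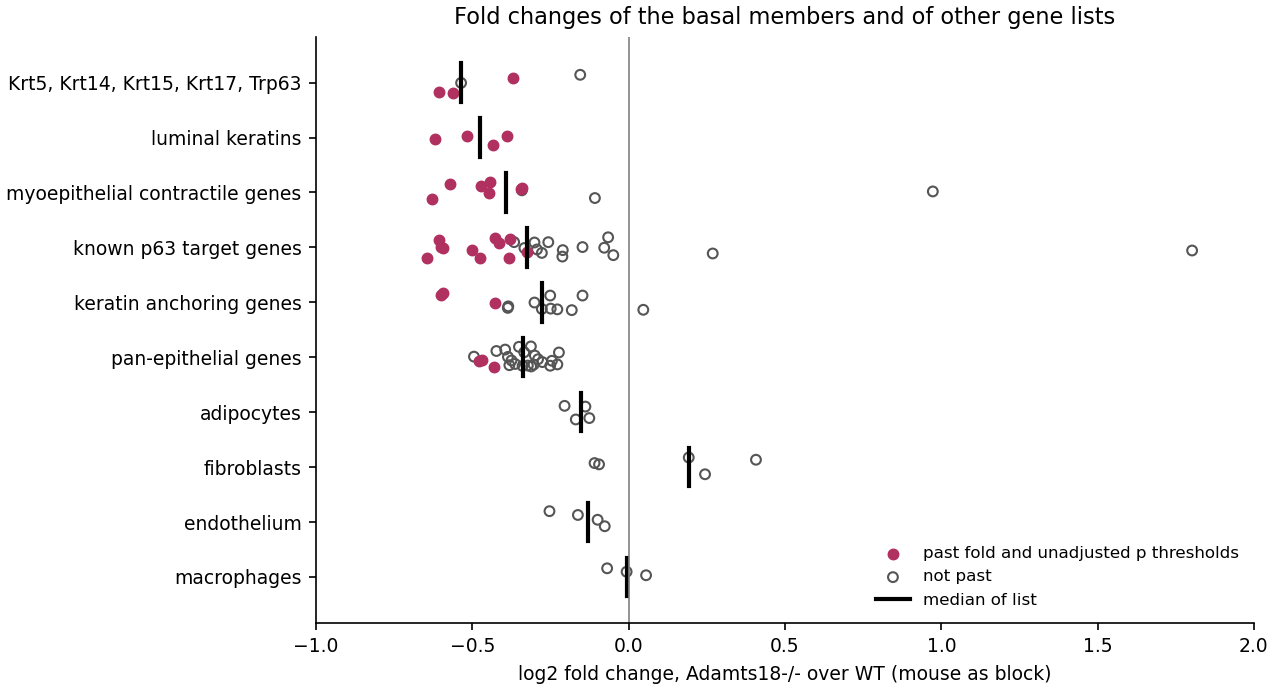
Fitted log2 differences (Adamts18-/- over WT, mouse as block, horizontal axis) of the genes tested in each list, one point per gene; filled points passed the fold and unadjusted p thresholds and bars mark the list medians. The medians of the members (-0.54), luminal keratins (-0.48) and contractile genes (-0.39) lie left of 0, while the contractile gene Tpm2 lies at 0.97. The medians are -0.15 for adipocyte genes, -0.13 for endothelial genes, -0.01 for macrophage genes and 0.19 for fibroblast genes. Scaling to pan-epithelial genes turns the median of the p63 targets to 0.02 and that of the anchoring genes to 0.07. It moves the medians of the members, luminal keratins and contractile genes to -0.19, -0.13 and -0.05.

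Most remaining keratins were near or at 0. Besides the 4 members, 46 keratin genes were in the table: 10 had no count in any library, 27 had a mean above 0 but under 1 CPM, and 18 were tested. Among these, 5 were lower by the thresholds (the 4 luminal keratins and Krt42) and Krt6a was higher. Krt6a, a partner chain of Krt16 and Krt17 in wounded and hyperproliferative epidermis, counted 6, 19 and 8 in WT and 11, 61 and 23 in Adamts18-/- glands. It was higher in all 3 mice, with a fitted log2 difference of 1.49 (SE 0.27, unadjusted p = 0.00330, adjusted p = 0.987). These are few counts beside those of Krt5, with which Krt6a shares 85-base windows as described above, and the origin of these reads was not tested. Krt16 reached at most 3 counts and Krt6b 1 count in a library.

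Both lists of skin markers summed to less than the level of Krt5 in every gland. The epidermal list summed to more than the level of Krt15 in every gland. Among 11 epidermal genes, Krt2 and Flg were at 0 in every library, Lor, Ivl and Krt77 had at most 11 counts, and the list summed to 31.9 to 45.8 CPM in WT and 23.1 to 39.8 CPM in Adamts18-/- glands, with Sbsn and Lgals7 the most abundant. Of the 6 tested, Lgals7 was lower by the thresholds (-0.39). Hair follicle and sebaceous gland genes summed to 3.38 to 3.83 CPM in WT and 2.98 to 4.70 CPM in Adamts18-/- glands, with Krt27 at 0.

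The genes whose profile over the 6 libraries lay closest to each member were found by the root mean square difference of mean-centred log2 CPM, among genes with a mean of at least 10 CPM. This is a description over 6 libraries that share host, scaling and cell composition. Krt5 lay closest to Csdc2 (0.098), Krt14 (0.105) and Tfap2c (0.142), and Krt14 lay closest to Krt5, Csdc2 (0.131) and Tfap2c (0.131). Krt17 lay closest to the contractile genes Oxtr (0.10) and Acta2 (0.163) and to the laminin gene Lama1 (0.180). Trp63 lay closest to Khdrbs3 (0.072), Nav2 (0.074) and Mylk (0.078). Krt15 had no near neighbour: the closest were Lgals7 (0.457), Igkv1-117 (0.468) and Ddit4 (0.525), and its distance from the other members was 0.658 to 0.785, against 0.105 to 0.240 among those 4. The measure grows with the spread of a gene over the glands, so it does not separate spread from shape. Log2 CPM ranged from 2.28 to 4.87 for Krt15 and from 4.47 to 5.67 for Trp63.

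**Figure D5:**
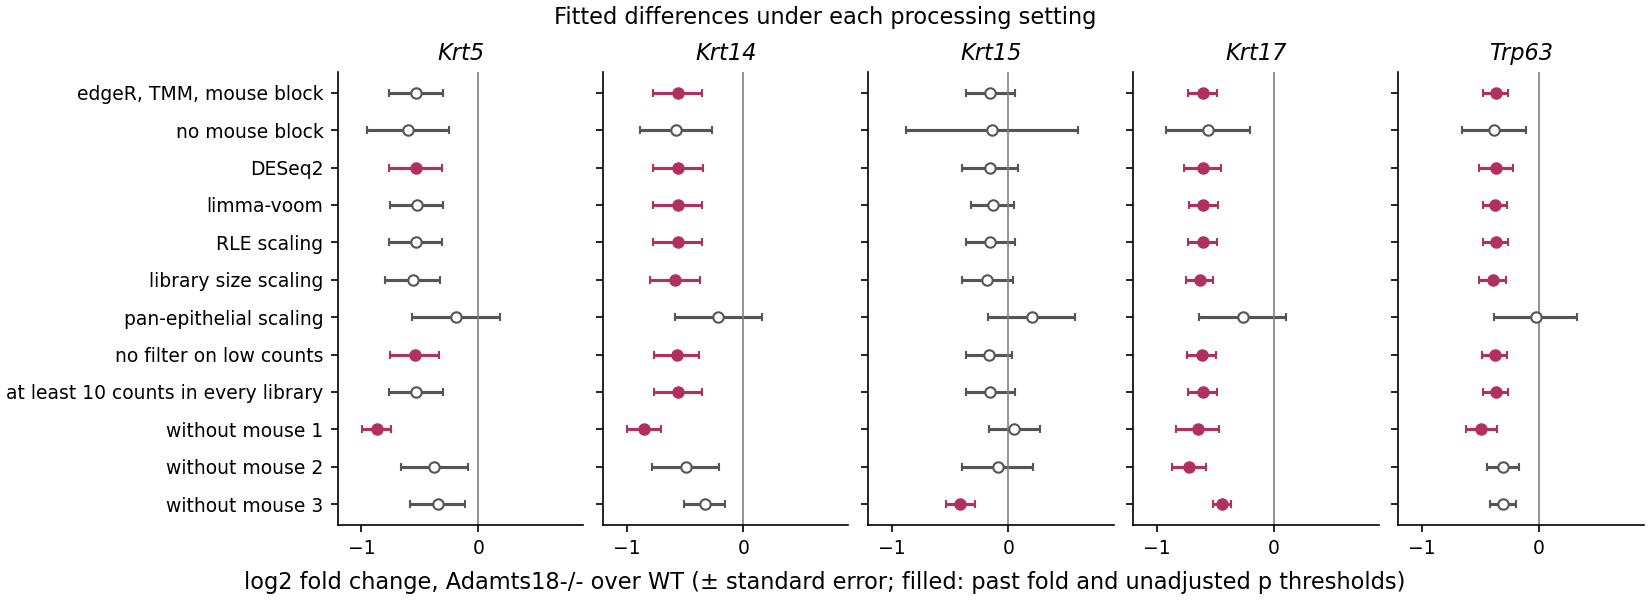
Fitted log2 differences (Adamts18-/- over WT, horizontal axes, bars are standard errors) of each member under each way of scaling, filtering and testing, and with each mouse left out; filled points passed the fold and unadjusted p thresholds. Krt17 is filled in all settings other than those without the mouse block and with pan-epithelial scaling, and Krt15 crosses 0.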

How the data were processed

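RNA was sequenced as single-end reads of 85 bases. Per the labels, the authors demultiplexed with bcl2fastq 2.18, aligned to mm9 with TopHat2 2.0.11 and counted reads per gene with featureCounts 1.6.2, and deposited raw counts. Whether strand was used is not given in the sources used here. All 17345 genes kept by filterByExpr were fitted with edgeR 4.0.16 (R 4.3.3) by its quasi-likelihood test with TMM scaling and a term for the mouse, with Benjamini-Hochberg adjustment over these genes. The glands of a pair came from 1 host by their labels, and deviations from the group means correlated within mice (0.512, 0.505 and 0.639). CPM are TMM-scaled, and RPKM use exon lengths from GENCODE M21, which matched 29241 symbols. Log2 CPM used a prior count of 2. Ratios used exact paired permutation tests. Scripts were tested on simulated data. Alternatives were DESeq2 1.42.0, limma-voom (limma 3.58.1), other scalings and filters, no block, and leaving out each mouse; for the gene lists these were added after seeing the data. The members and gene lists were chosen with earlier results of these data known. The genes named are the members, listed genes past the study's thresholds, up to 4 of the most abundant per list and the 3 closest in profile to each member, with exceptions stated; some items are not reported here. Eppk1 and Adgre1 were listed but not analysed here.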

Additional observations from a re-analysis of the deposited data

How the results depend on the processing

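The replicate block decided the number of members past the study's thresholds: 3 with it and 0 without it. It was also 0 with pan-epithelial scaling and, leaving out each mouse in turn, ranged from 1 (without mouse 2) to 4. Of 55 genotype differences over the 5 members and 11 alternatives, 52 kept their direction and their side of an adjusted p of 0.05. Krt15 reversed to 0.20 with pan-epithelial scaling and ranged from -0.41 to 0.049 with 1 mouse left out, the latter without mouse 1, and Krt17 passed with DESeq2 (log2 difference -0.61, adjusted p = 0.0395, the lowest over the alternatives), the cause of which was not tested. On the simulated data, DESeq2 called 131 genes at an adjusted p under 0.05, of which 90 had been given a change. With edgeR it was 55 of 65. The simulated counts were drawn from the values and dispersions fitted by edgeR, so these numbers cannot rank the tools on the real data. Adjusted p for differences between mice fell under 0.05 with DESeq2 for Krt5 (0.0426), Krt15 (1.8e-10), Krt17 (2.35e-05) and Trp63 (0.00130). They did so with pan-epithelial scaling for Krt15 (0.000225), with no filter on low counts for Krt15 (0.0306) and Krt17 (0.0470), and without mouse 3 for Krt15 (0.0228) and Krt17 (0.0402), where leaving out a mouse gave at most 0.165 and 0.739. Over the whole table, DESeq2 called 3326 of 17345 genes for differences between mice, against 109 in the edgeR test. Such calls numbered 1139 with pan-epithelial scaling, 1106 of 24591 with no filter and 48 of 17383 without mouse 3. The basal to luminal ratio reversed to 0.079 without mouse 3 and was lowest without mouse 1 (-0.22); with pan-epithelial genes as denominator it was -0.20, against -0.065. The Krt5 to Krt14 ratio reversed to -0.017 against the sum of Krt14, Krt15 and Krt17, to -0.019 without mouse 1 and to -0.017 without mouse 3, and was 0.12 without mouse 2. DESeq2 called 71 genes of the table, scaling to pan-epithelial genes 239 and leaving out mouse 3 268 at an adjusted p under 0.05, against 0 in the edgeR test, where 670 had an unadjusted p under 0.05. By the study's thresholds, 319 genes were lower and 203 higher, against 125 and 218 without the block, 31 and 913 with pan-epithelial scaling, 297 and 340 with DESeq2, 343 and 345 with limma-voom, 364 and 167 with library size scaling, and 286 and 581 without mouse 3. Without mouse 1 these numbers were 481 and 182, and without mouse 2 they were 214 and 319. With 3 pairs, the exact tests of the ratios could not reach 0.05.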

Other observations

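Some genes of the luminal subsets were lower as well. Of 6 genes of hormone-sensing luminal cells, 3 were lower in Adamts18-/- glands by the study's thresholds and none was higher, with a median fitted log2 difference of -0.36. With pan-epithelial scaling the median was -0.02, and 0 of the 6 were lower and 1 was higher by the thresholds. Cited1, a transcriptional coregulator, counted 57.6, 59.6 and 83.9 CPM on the WT side of mice 1, 2 and 3 and 27.3, 27.2 and 42.6 CPM in the Adamts18-/- glands. Its groups did not overlap (every Adamts18-/- gland lay below every WT gland for 2.63% of all genes tested), and its fitted log2 difference was -1.06 (SE 0.07, edgeR adjusted p = 0.771). Prlr, the prolactin receptor, and Foxa1, a pioneer factor for the estrogen receptor, had fitted differences of -0.59 and -0.46, while Esr1, the estrogen receptor, had one of -0.02 and did not pass. Of 6 genes tested from secretory and progenitor luminal cells, Elf5, a regulator of alveolar differentiation, was lower by the thresholds (-0.57, SE 0.20), with WT values of 78.8, 141 and 85.5 CPM and Adamts18-/- values of 79.2, 75.2 and 48.7 CPM. Without mouse 1, 6 of these 6 genes passed, and without mouse 2 or mouse 3 none did. Like Krt5 and Krt14, Elf5 was level in mouse 1 and lower in mice 2 and 3.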
